A study of Mus musculus with 3 samples.

Results

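Imprinted genes were followed in fibroblasts, the cells that lay down connective tissue, taken from mouse embryos of stage E12.5 and kept as primary cultures. The 38 genes were chosen by name from the known imprinted domains. No measured value enters the rule, but the choice was made with earlier results of these data known. They comprise 21 genes expressed from the paternal allele and 17 from the maternal allele, and the allele assignments are textbook background. Of the 38, 34 had at least 1 probe whose transcript is a RefSeq transcript of the gene, 55 probes in all, and 30 passed the filter on dim probes, among 18488 genes or transcripts tested. The filter asked for a probe well above background on all 3 arrays in the same channel. Each of 3 Agilent 2-colour arrays set 1 untreated culture labelled SA1-null, in Cy3, against 1 untreated culture labelled wild type, in Cy5, all grown with 10% serum. The series asks what cohesin carrying the subunit SA1, encoded by Stag1, does in gene regulation. The deletion, the strain and the sex of the embryos are not given in the labels, and no array had the dyes exchanged, so dye and genotype label cannot be told apart.

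Stag1 went against the labels. The normalised intensity of its brightest probe was 2337, 1761 and 2067 in the channel labelled SA1-null on replicates 1, 2 and 3. In the channel labelled wild type it was 231, 131 and 187 (log2 ratio 3.52 ± 0.21, SD, n = 3, limma adjusted p = 0.0273). With the mean of all kept Stag1 probes the log2 ratio was smaller, at 2.45, and of the same sign. Groups are therefore named by their channel labels, and every sign below turns over if the channels were exchanged. Ratios here are Cy3 over Cy5, SA1-null over wild type by label, and the deposited ratios run the opposite way. Normalised intensity is the signal of a channel after background correction and loess. Of 12 fibroblast markers 11 were measured, and Vim, with 1 probe, was not. Their median lay between the 97.8th and 99.3rd percentile of probes in every channel, but Dpt lay between the 49.8th and 71.2nd. All 11 passed the background limit on every array in both channels, which the filter already asked of 1 channel. Macrophage markers were present as well. Summed over 17 markers, in units of each channel's 75th percentile of probe intensity, they came to 10.5 to 42.0 in the channel labelled SA1-null and 92.5 to 400.6 in the channel labelled wild type. Of these 17, 15 passed that limit on every array in both channels. The others, Itgam and Spi1, passed the filter only through the channel labelled wild type, so the filter itself favoured a low ratio for them. All 17 had a ratio below 0 on 3 of 3 arrays, where 19.1% of all genes did. The test was passed by 10, where 0.314% of all genes passed in either direction. The 11 fibroblast markers summed to 612 to 763 in the channel labelled SA1-null and 286 to 505 in the channel labelled wild type. Their median log2 ratio was 0.85, and 10 of the 11 were above 0, where 45.6% of all genes were. Of the 11, 0 passed the test, and 6 were higher at an unadjusted p under 0.05, where 2.33% of all genes were. The part of either list in the results below was not tested. For other cells, 1 of 10 trophoblast, 4 of 10 neuron and glia and 4 of 10 muscle markers were measured. So were 7 of 8 epithelial and 3 of 8 endothelial markers. Median ratios in that order were 0.16, -0.15, -0.18, 0.06 and 0.24. Of these 19, 0 passed in limma. At an unadjusted p under 0.05, 1 neuron and 1 endothelial marker were higher (2.33% of all genes) and 2 epithelial markers lower (5.15% of all genes). Some of the 19 were bright. The muscle marker Actc1 lay between the 97.9th and 99.5th percentile of probes in every channel. Tubb3, Krt18 and Krt19 lay between the 83.9th and 92.3rd in both channels of replicates 2 and 3. In bulk RNA, fewer cells of a type and less RNA per cell cannot be told apart.

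An imprinted gene is transcribed mainly from the copy inherited from one parent. DNA methylation laid down in egg or sperm marks an imprinting control region, which then sets the expression of a whole cluster of genes. At Igf2 and H19 the control region binds CTCF on the unmethylated maternal copy and insulates Igf2 from shared enhancers, and cohesin is known to gather at such CTCF sites. Paternally expressed genes such as Igf2 and Dlk1 tend to promote embryonic growth, and maternally expressed genes such as Cdkn1c, Grb10 and Igf2r tend to restrain it. The arrays measure total RNA of a gene and do not separate the parental alleles.

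The start sites of the 4 genes with a mean log2 ratio above 0.8 that were above 0 on every array are shown. Imprinting methylates CpG dinucleotides, but methylation was not measured here. The windows are start sites and were not chosen as imprinting control regions. Each window runs 250 bases before to 50 bases after a start, from RefSeq on GRCm38.p6, with CpG dinucleotides in capitals. Where a gene has several windows the one richest in CpG is given, which applies to Igf2 (4 windows) and Grb10 (2 windows).
Igf2, chr7:142658755-142659054, minus strand: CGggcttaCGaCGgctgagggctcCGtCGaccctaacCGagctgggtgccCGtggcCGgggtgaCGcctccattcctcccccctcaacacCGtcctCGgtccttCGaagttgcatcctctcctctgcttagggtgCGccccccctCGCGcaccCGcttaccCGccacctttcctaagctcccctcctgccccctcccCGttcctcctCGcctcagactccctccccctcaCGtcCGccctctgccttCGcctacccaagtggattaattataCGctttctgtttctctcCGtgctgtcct
Dlk1, chr12:109452573-109452872, plus strand: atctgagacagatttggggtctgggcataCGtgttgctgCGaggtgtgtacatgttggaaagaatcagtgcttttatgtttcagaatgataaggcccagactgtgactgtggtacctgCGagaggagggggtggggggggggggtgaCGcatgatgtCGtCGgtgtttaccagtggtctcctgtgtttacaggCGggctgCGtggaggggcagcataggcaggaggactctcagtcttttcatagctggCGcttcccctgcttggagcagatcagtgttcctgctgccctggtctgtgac
Dio3, chr12:110278980-110279279, plus strand: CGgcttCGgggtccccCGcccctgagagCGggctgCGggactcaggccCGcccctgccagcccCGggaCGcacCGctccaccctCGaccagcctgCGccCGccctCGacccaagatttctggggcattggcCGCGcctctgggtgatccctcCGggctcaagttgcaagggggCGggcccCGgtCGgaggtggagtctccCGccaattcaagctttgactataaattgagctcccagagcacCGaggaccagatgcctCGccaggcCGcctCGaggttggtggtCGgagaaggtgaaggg
Grb10, chr11:12037371-12037670, minus strand: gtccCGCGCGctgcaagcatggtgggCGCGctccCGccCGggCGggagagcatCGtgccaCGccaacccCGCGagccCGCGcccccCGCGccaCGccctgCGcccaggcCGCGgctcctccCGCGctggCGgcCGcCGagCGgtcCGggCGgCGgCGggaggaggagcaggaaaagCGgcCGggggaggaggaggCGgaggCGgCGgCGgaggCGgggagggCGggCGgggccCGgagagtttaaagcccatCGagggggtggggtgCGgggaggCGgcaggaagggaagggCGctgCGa

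The printed windows hold 24 CpG in Igf2, 9 in Dlk1, 25 in Dio3 and 45 in Grb10. The windows not printed hold 14, 7 and 2 CpG in Igf2 and 9 in Grb10. The median over all 32851 windows of that length was 7, a value the printed windows of Igf2 and Grb10, picked as the richest, cannot be set against. Of the 38 listed genes 30 matched an entry, with 47 windows and a median of 14 CpG. The Dio3 window holds TATAAA starting 31 bases before the start, a sequence found on either strand in 13.6% of all windows and in 10 of the 47.

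No imprinted gene passed the test. Of the 30 measured, 0 had a limma adjusted p under 0.05, where 0.314% of all genes tested did. At an unadjusted p under 0.05, 6 lay above 0 (Igf2, Dlk1, Dio3, Slc22a18, Peg3 and Grb10) and 1 below (Nap1l4), where 2.33% and 5.15% of all genes did. In the higher direction 0.0108% of all genes passed after adjustment. The median log2 ratio over the 30 genes was 0.21, with array medians of 0.26, 0.09 and 0.07, and that over all genes was -0.02. The mean was above 0 in 20 of the 30, where it was in 45.6% of all genes. On 3 of 3 arrays 12 were above 0 and 5 were below, where 13.3% and 19.1% of all genes were. The 5 include Kcnq1, a dim gene described below. With median centring of each array in place of loess, only 11 of the 30 were above 0 and their median was -0.09, while the median of all genes went to -0.30, so the imprinted median lay 0.20 above it. Without replicate 1 the median was 0.08. By expressed allele, 11 of 16 paternally expressed genes were above 0 with a median of 0.24, and 9 of 14 maternally expressed genes with a median of 0.13. No test of the difference between the alleles was made.

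**Figure D1:**
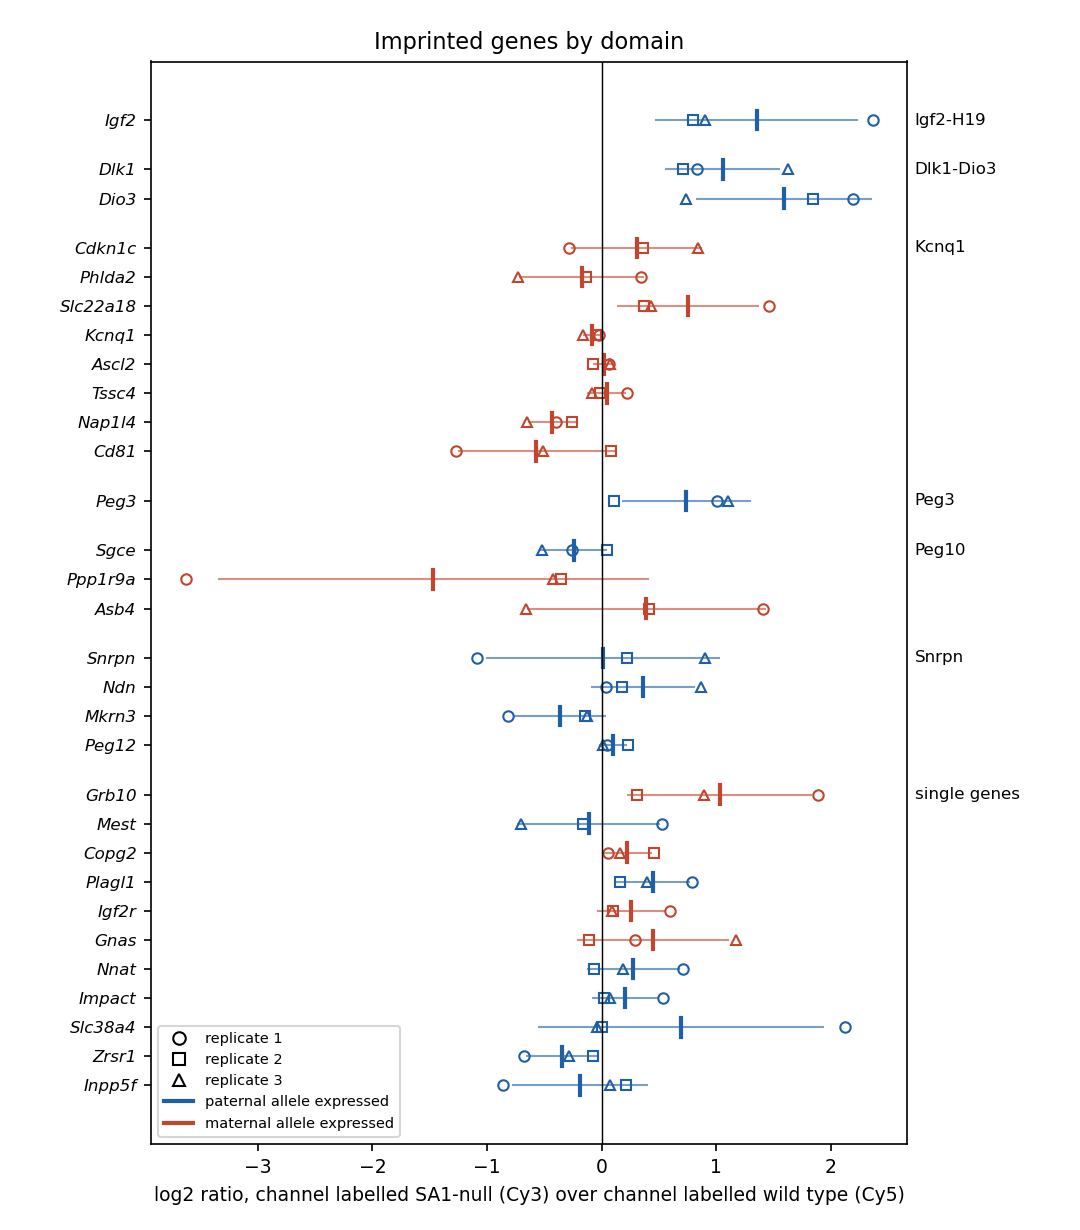
Log2 ratio of Cy3 (labelled SA1-null) to Cy5 (labelled wild type) on the horizontal axis for the 30 measured imprinted genes, by domain. Open symbols are the 3 arrays, vertical ticks the means and lines ± 1 SD, blue for paternally and red for maternally expressed genes. Igf2, Dlk1 and Dio3 lie above 0 on every array, and Ppp1r9a and Slc38a4 have 1 array (replicate 1) far from the other two.

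In the Igf2-H19 domain only Igf2, a fetal growth factor, could be measured, and H19, the maternally expressed non-coding RNA that shares its enhancers, had no matched probe. Igf2 read 173632, 25360 and 26190 in the channel labelled SA1-null on replicates 1, 2 and 3, against 33692, 14594 and 14046 in the channel labelled wild type (normalised intensity). On each array the channel labelled SA1-null was the higher, and replicate 1 stood apart. Whether the channels overlap across arrays turns on the scaling: these intensities, normalised array by array, overlapped. Relative to each channel's 75th percentile of probe intensity they did not, at 145.0, 44.0 and 37.98 labelled SA1-null against 25.3, 24.3 and 20.4 labelled wild type. The share of all genes without such overlap was not counted. The log2 ratios of Igf2 were 2.37, 0.80 and 0.90 (1.35 ± 0.88, SD, n = 3, limma adjusted p = 0.473). Its brightest probe was spotted 10 times on each array, and the spots ran from 2.27 to 2.45 on replicate 1, from 0.72 to 0.92 on replicate 2 and from 0.80 to 0.95 on replicate 3. The SD between spots, which is technical, was 0.06, 0.06 and 0.04. A second Igf2 probe gave 3.17, 0.74 and 1.28. Igf2r, which encodes the maternally expressed receptor that takes IGF2 to the lysosome for breakdown, gave log2 ratios of 0.59, 0.10 and 0.09 (0.26 ± 0.29, adjusted p = 0.725 in limma).

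In the Dlk1-Dio3 domain both measured genes, Dlk1 and Dio3, were above 0 on every array, and both are paternally expressed. Dlk1 encodes a membrane protein of the Delta-like family that holds back fat cell formation. It read 4902, 1606 and 3178 in the channel labelled SA1-null, against 2756, 982 and 1033 in the channel labelled wild type. Its log2 ratios were 0.83, 0.71 and 1.62 (1.05 ± 0.50, SD, n = 3, limma adjusted p = 0.364), the highest on replicate 3 and not on replicate 1. Dio3, the deiodinase that inactivates thyroid hormone, read 2070, 432 and 213 in the channel labelled SA1-null, against 453, 120 and 127 in the channel labelled wild type. On replicates 2 and 3 Dio3 was dim in the channel labelled wild type, at the 53.9th and 54.3rd percentile of probes. Its log2 ratios of 2.19, 1.85 and 0.74 gave the highest mean of the 30 genes (1.59 ± 0.76, SD, n = 3, limma adjusted p = 0.285). With the processed signals of Feature Extraction, Dio3 was at 2.19 and passed (limma adjusted p = 0.0377), where 1.76% of all genes did. Meg3, the maternally expressed non-coding RNA of the domain, and Rtl1, a retrotransposon-derived gene, had no matched probe.

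**Figure D2:**
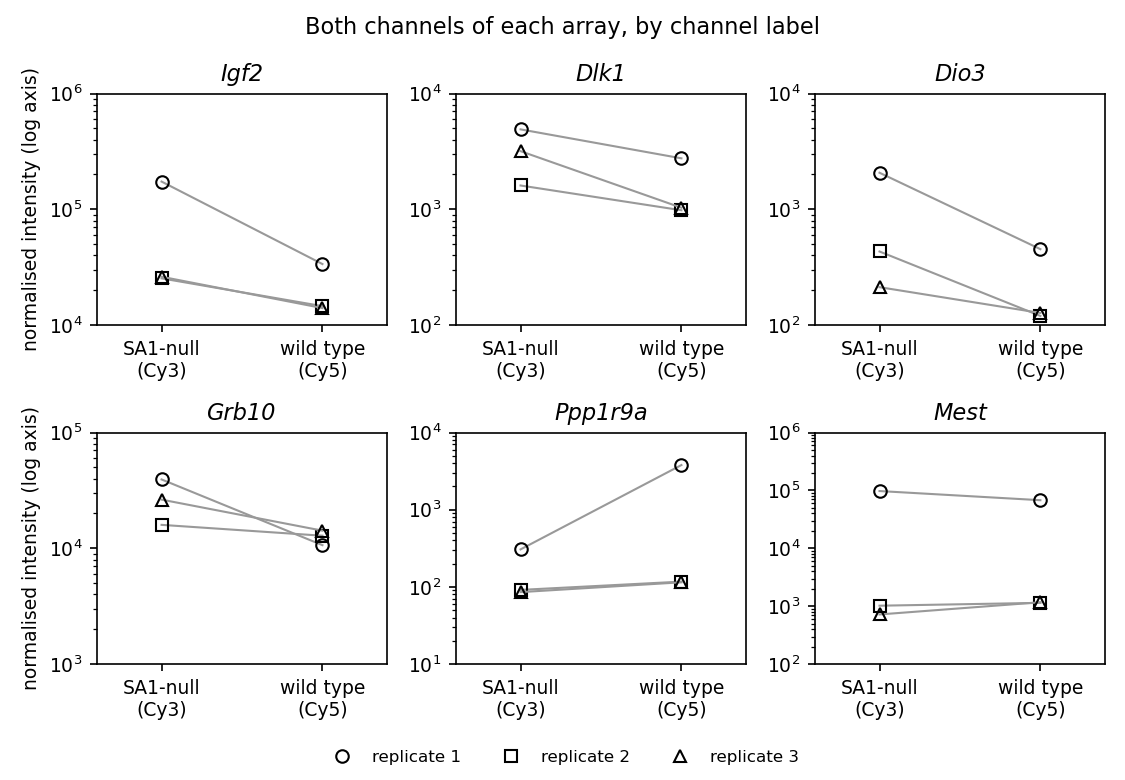
Normalised intensity (log axis) of 6 imprinted genes in the channel labelled SA1-null (left) and the channel labelled wild type (right), with a line joining the channels of each array. Igf2, Dlk1 and Dio3 slope down to the right on all 3 arrays, and Mest is far brighter on replicate 1, at 97527 and 67764, than on the other arrays in either channel.

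The Kcnq1 domain is maternally expressed under a paternal non-coding RNA, and several of its outer genes are imprinted mainly in placenta. It showed no common direction: of its 8 genes 4 were above 0, with a median of -0.03. Cdkn1c, the cell cycle inhibitor p57, read 3697, 928 and 1349 in the channel labelled SA1-null, against 4495, 722 and 756 in the channel labelled wild type. Its sign differed between arrays (-0.28, 0.36 and 0.84). Slc22a18, an organic cation transporter gene near Cdkn1c, read 1676, 154 and 151 in the channel labelled SA1-null, against 609, 119 and 112 in the channel labelled wild type. Both channels were dim on replicates 2 and 3, between the 51.8th and 59.1st percentile of probes. Slc22a18 was the one gene of the domain above 0 on every array (1.46, 0.37 and 0.43, mean 0.75 ± 0.61, limma adjusted p = 0.656), and its second probe was at 0.11. Phlda2, a growth-restraining gene of the placenta, was dim at 94.2, 143 and 108 in the channel labelled SA1-null, against 74.1, 157 and 178 in the channel labelled wild type, with ratios of 0.35, -0.14 and -0.73. It was above background on 3 arrays in the channel labelled SA1-null and on 2 in the channel labelled wild type.

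Of the remaining genes of the Kcnq1 domain, Kcnq1 and Ascl2 were dim and Tssc4, Nap1l4 and Cd81 were bright. Kcnq1, a potassium channel gene, and Ascl2, a transcription factor of trophoblast, lay between 78.3 and 139 in every channel, with mean ratios of -0.08 and 0.02. Kcnq1 gave -0.02, -0.05 and -0.17 by array, and Ascl2 gave 0.06, -0.08 and 0.07. Kcnq1 was above background on 2 arrays in the channel labelled SA1-null and on 3 in the channel labelled wild type, so it passed the filter through the channel where it was higher. Tssc4 read 10163, 6409 and 6723 in the channel labelled SA1-null, against 8717, 6455 and 7124 in the channel labelled wild type, with ratios of 0.22, -0.01 and -0.08 (0.04 ± 0.16), so the channels overlapped. Nap1l4, a histone chaperone gene, read 29875, 31395 and 27434 in the channel labelled SA1-null, against 39346, 37528 and 43030 in the channel labelled wild type (-0.40, -0.26 and -0.65, mean -0.43 ± 0.20, limma adjusted p = 0.656). Relative to each channel's 75th percentile of probe intensity the channels overlapped, at 24.9, 54.5 and 39.8 labelled SA1-null against 29.6, 62.5 and 62.5 labelled wild type. Its other 2 probes had the opposite sign (0.31 and 0.22). Cd81, a tetraspanin of the cell surface, read 56488, 62357 and 47778 in the channel labelled SA1-null, against 136376, 59017 and 68242 in the channel labelled wild type, with ratios of -1.27, 0.08 and -0.51 (-0.57 ± 0.68).

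In the Peg3 domain only Peg3 passed the filter. Peg3, a paternally expressed zinc finger gene, read 1497, 110 and 244 in the channel labelled SA1-null, against 744, 103 and 113 in the channel labelled wild type. On replicates 2 and 3 Peg3 was dim in the channel labelled wild type, at the 50.3rd and 52.1st percentile of probes. It was above 0 on every array (1.01, 0.10 and 1.10, mean 0.74 ± 0.55, limma adjusted p = 0.630), and its second probe averaged 0.50. Usp29, a deubiquitinase gene that shares a promoter region with Peg3, was well above background in 0 arrays of the channel labelled SA1-null and 1 of the channel labelled wild type. Zim1, maternally expressed, was above background in 2 and 1 arrays of these channels, and no ratio is given for either.

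In the Peg10 domain the largest ratio belonged to a single array. Ppp1r9a, which encodes the actin-binding neurabin, read 306, 91.6 and 85.7 in the channel labelled SA1-null, against 3790, 117 and 115 in the channel labelled wild type. The log2 ratio was -3.63 on replicate 1 and -0.36 and -0.42 on replicates 2 and 3 (-1.47 ± 1.87, SD, n = 3, limma adjusted p = 0.703), and without replicate 1 it was -0.39. Its other 3 probes did not pass the filter. Sgce, the sarcoglycan gene that shares its promoter region with Peg10, read 26336, 7143 and 5021 in the channel labelled SA1-null, against 31472, 6930 and 7211 in the channel labelled wild type (-0.26, 0.04 and -0.52, mean -0.25 ± 0.28). Asb4, which encodes a substrate adaptor of ubiquitin ligases, read 389, 510 and 324 in the channel labelled SA1-null, against 146, 383 and 510 in the channel labelled wild type. Asb4 ratios were 1.41, 0.41 and -0.66 (0.39 ± 1.03), so the 3 measured genes of the domain shared no direction. Peg10, a retrotransposon-derived gene, was above background in 1 array of either channel and was not tested.

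The Snrpn domain, the mouse counterpart of the Prader-Willi region, is paternally expressed. Snrpn, a spliceosome protein gene, read 843, 597 and 1219 in the channel labelled SA1-null, against 1791, 514 and 652 in the channel labelled wild type. Its log2 ratio was -1.09, 0.22 and 0.90 on replicates 1, 2 and 3, a spread that cancels to a mean of 0.01 ± 1.01, and its second probe had the same pattern (-1.17, 0.41 and 0.70). Ndn, which encodes the growth suppressor necdin, read 3415, 2547 and 5126 in the channel labelled SA1-null, against 3327, 2249 and 2803 in the channel labelled wild type (0.04, 0.18 and 0.87, mean 0.36 ± 0.45). Peg12, a Frat family gene of Wnt signalling, read 1415, 2124 and 2527 in the channel labelled SA1-null, against 1367, 1813 and 2504 in the channel labelled wild type (0.05, 0.23 and 0.01, mean 0.10 ± 0.12). Both were above 0 on every array. Mkrn3, a ubiquitin ligase gene, was dim at 113, 79.3 and 78.1 in the channel labelled SA1-null, against 198, 87.5 and 85.5 in the channel labelled wild type (-0.81, -0.14 and -0.13, mean -0.36 ± 0.39), and Magel2 had no matched probe.

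Among the single genes, Grb10 had the highest mean. Grb10, a maternally expressed adaptor that dampens insulin and IGF receptor signalling, read 39339, 15948 and 26336 in the channel labelled SA1-null, against 10651, 12848 and 14205 in the channel labelled wild type. On this probe, its brightest, the lowest value labelled SA1-null lay above the highest value labelled wild type, also relative to each channel's 75th percentile. The log2 ratios were 1.88, 0.31 and 0.89 (1.03 ± 0.80, SD, n = 3, limma adjusted p = 0.602). The channels overlapped on its other 2 probes, which averaged 0.62 (1.61, 0.09 and 0.17) and 0.17 (1.08, -0.13 and -0.43). As for Igf2, the share of all genes without such overlap was not counted. Slc38a4, a paternally expressed amino acid transporter gene, read 2447, 2182 and 2154 in the channel labelled SA1-null, against 561, 2174 and 2222 in the channel labelled wild type. Its ratio of 2.13 on replicate 1 stood against 0.01 and -0.04 on the other arrays, and without replicate 1 it was -0.02. The reading that stood apart was that of Cy5, labelled wild type, on replicate 1, and a second probe gave 1.44, 0.21 and 0.05.

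Plagl1, a zinc finger factor that regulates other imprinted genes in mouse, read 1143, 148 and 221 in the channel labelled SA1-null, against 662, 133 and 169 in the channel labelled wild type (0.79, 0.16 and 0.39, mean 0.45 ± 0.32, limma adjusted p = 0.684). Gnas, the gene of the stimulatory G protein alpha subunit, gave 0.30, -0.11 and 1.17 (0.45 ± 0.65). Gnas transcripts of opposite imprinting share exons, and its second measured probe, which was dim, averaged 0.13. Copg2, a coatomer gene beside Mest, and Impact, a translation regulator, were above 0 on every array. Copg2 gave 0.05, 0.45 and 0.16, and Impact gave 0.53, 0.02 and 0.07, with means of 0.22 and 0.21. Nnat, a membrane proteolipid gene, was at 0.71, -0.07 and 0.19 (0.28 ± 0.40). Zrsr1, a retrogene of a splicing factor, was below 0 on every array (-0.67, -0.08 and -0.28, mean -0.35 ± 0.30). Inpp5f, a phosphoinositide phosphatase gene, was at -0.86, 0.21 and 0.07 (-0.19 ± 0.58) with a second probe at 0.11. Rasgrf1, a Ras exchange factor gene, was above background on 1 array in either channel and was not tested. On replicate 1 its brighter probe had a raw signal of 51 in Cy3, labelled SA1-null, against 1205.5 in Cy5, labelled wild type.

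Of the 11 genes with several measured probes, 8 had probes of 1 sign, and Nap1l4, Snrpn and Inpp5f did not. Replicates 2 and 3 shared a slide that did not hold replicate 1. The fit with slide as a fixed term, in which the spread comes only from the arrays of slide 2, called 7 of the 30, where 9.58% of all genes were called. Those were Igf2, Dlk1, Dio3, Slc22a18, Grb10 and Slc38a4 with positive ratios, and Ppp1r9a with a negative one. Without replicate 1, Slc38a4 was at -0.02 and Ppp1r9a at -0.39. In the slide fit replicate 1, alone on its slide, enters the mean ratio but adds nothing to the spread. Apart from this fit and the processed signals, 0 of the imprinted genes passed under any alternative run. The share of all genes called was then 0.638% with no background subtraction, 1.43% with normexp at offset 0, 0.184% with median centring, 0.855% with scale normalization and 0.302% with the deposited values. It was 0.538% where both channels had to be above background, 0.26% with the mean of all kept probes, 0.281% with robust eBayes, 0.395% with channels as separate samples and 1.54% without replicate 1. With no filter, with eBayes with trend, without replicate 2 and without replicate 3 it was 0%.

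Levels of some imprinted genes differed between arrays by more than between the channels of an array. Mest, a paternally expressed hydrolase gene of embryonic mesoderm, read 97527, 1022 and 722 in the channel labelled SA1-null, against 67764, 1145 and 1172 in the channel labelled wild type. Its log2 ratios were 0.53, -0.16 and -0.70 (-0.11 ± 0.61, limma adjusted p = 0.928). On replicate 1 Mest ranked at the 99.8th percentile of probes in the channel labelled SA1-null and the 99.4th in the channel labelled wild type, and on replicates 2 and 3 between the 75.4th and the 81.4th in all 4 channels. Relative to each channel's 75th percentile, Mest was 5.90 log2 units higher on replicate 1 than the mean of the others in the channel labelled SA1-null and 4.82 in the channel labelled wild type. All tested genes had medians of -0.34 and -0.40 on these scales.

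By the same measure 5 of the 30 imprinted genes were over 1 log2 unit higher on replicate 1 in both channels, where 4.71% of all genes were. Besides Mest these were Peg3, Slc22a18, Plagl1 and Sgce. Peg3 was at 2.26 in the channel labelled SA1-null and 1.74 in the channel labelled wild type. In the same order of channels Slc22a18 was at 2.53 and 1.35, Plagl1 at 1.73 and 1.10 and Sgce at 1.21 and 1.11. A second Slc22a18 probe, which was dim, went the other way. Over the 75th percentile it read 0.125, 0.260 and 0.207 on replicates 1, 2 and 3 in the channel labelled SA1-null. In the channel labelled wild type it read 0.0834, 0.236 and 0.235. Copg2, the neighbour of Mest, lay just below the limit in one channel (0.97 and 1.10). Over 1 log2 unit lower in both were Phlda2, Kcnq1, Peg12 and Nnat, 4 of the 30, near the 11.9% of all genes. Phlda2 and Kcnq1 were dim on every array, so their levels on this scale depend largely on each channel's 75th percentile. These levels are a description with 1 array against 2, and the slide and software version of replicate 1 differ too. Y chromosome genes were also read on replicate 1 alone. Ddx3y had raw signals of 1633, 32 and 29 in the channel labelled SA1-null, against 6320, 57 and 52.5 in the channel labelled wild type, and the 5 probes of 4 Y genes were well above background in both channels of replicate 1 and in neither channel of the other arrays. Marker lists moved with replicate 1 as well. The summed level of the 7 epithelial markers, over each channel's 75th percentile, was 1.90 on replicate 1 against 9.19 and 9.36 on the others in the channel labelled SA1-null, and 0.845 against 12.6 and 12.9 in the channel labelled wild type. The summed level of the 17 macrophage markers was 42.0 against 13.2 and 10.5 in the channel labelled SA1-null. In the channel labelled wild type it was 400.6 against 103.6 and 92.5. Dcn, a collagen-binding proteoglycan gene of the further imprinted genes, named after its values were seen, read 22283, 443 and 419 in the channel labelled SA1-null, against 8029, 631 and 456 in the channel labelled wild type. The part of slide, software, embryo sex or cell makeup in the level of Mest was not tested.

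**Figure D3:**
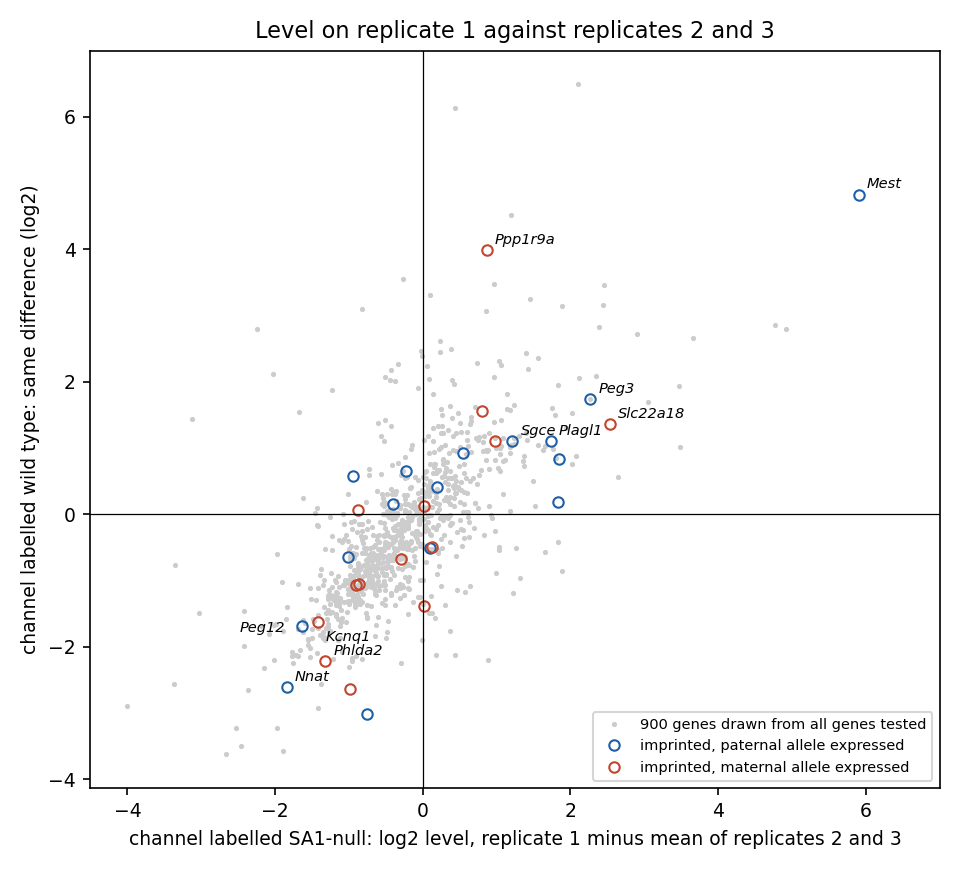
Level on replicate 1 minus the mean level on replicates 2 and 3, in log2 of intensity over each channel's 75th percentile, for the channel labelled SA1-null (horizontal) and the channel labelled wild type (vertical). Circles are the 30 imprinted genes and grey points 900 genes drawn at random from all tested. Mest lies far to the upper right at 5.90 and 4.82, and Ppp1r9a at 0.86 and 3.98 was bright on replicate 1 mainly in the channel labelled wild type.

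Of 42 further genes reported as imprinted in mouse, 24 were measured, with a median log2 ratio of -0.09, where that of all genes was -0.02. Of the 24, 9 were above 0, or 37.5%, near the 45.6% of all genes. On 3 of 3 arrays 1 was above 0 and 7 were below, where 13.3% and 19.1% of all genes were. The 7 include Ampd3, a dim gene that passed the filter only through the channel labelled wild type, where it was higher. In either direction 0 passed the test, where 0.314% of all genes did. At an unadjusted p under 0.05 in limma, 1 was lower, where 5.15% of all genes were. The one was Cobl, an actin nucleator gene beside Grb10, at -0.99, -0.78 and -1.26 (-1.01 ± 0.24, limma adjusted p = 0.199), opposite in sign to its neighbour. Gatm, a creatine synthesis gene, was at -3.67 on replicate 1 and at -0.72 and -0.63 on the others (-1.67 ± 1.73, limma adjusted p = 0.670). Of 26 genes that set or keep imprints, among them DNA methyltransferases and their partners, 19 were measured, with a median of 0.10 and means between -0.25 and 0.34. Of those, 0 passed the test, where 0.314% of all genes did. In limma 0 had an unadjusted p under 0.05, where 2.33% of all genes were higher and 5.15% lower. Ctcf had no matched probe.

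**Figure D4:**
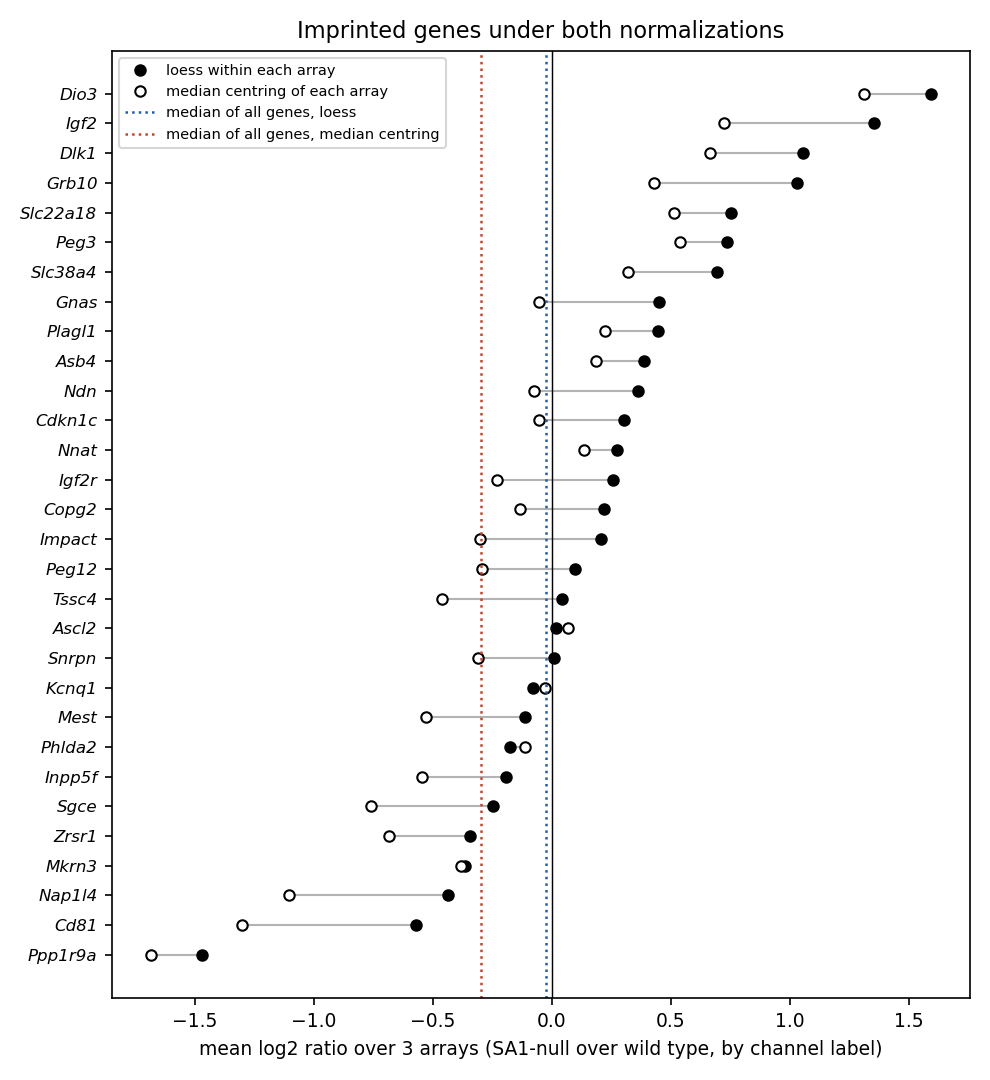
Mean log2 ratio over 3 arrays (channel labelled SA1-null over channel labelled wild type) of the 30 imprinted genes with loess (filled) and with median centring (open). Dotted lines mark the median of all genes, at -0.02 with loess and -0.30 with median centring. The sign turns for 9 genes, and Dio3, Igf2, Dlk1 and Grb10 stay above 0.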

How the data were processed

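RNA of the cultures (1 µg labelled per sample, per the labels) was hybridised to Agilent 2-colour arrays. Spot and background intensity values came from Feature Extraction 10.1.1.1 (replicate 1) and 10.7.3.1 (replicates 2 and 3), per the file headers, as did processed intensity values and a log10 ratio of Cy5 over Cy3. The deposited log2 values were made with limma, per the submitters' processing notes; set against the ratios computed here they run as Cy5 over Cy3 (correlations 0.985, 0.983 and 0.997, medians -0.02, -0.02 and -0.01), and their centring is unknown. Median signals were background-corrected by normexp (offset 50), then loess-normalised array by array, in R 4.3.3 with limma 3.58.1. Control spots and outlier-flagged spots (116, 125 and 207) were left out. Of 41174 probes, 24019 were well above background on all 3 arrays in the same channel and had a value on each. For a gene with several probes the brightest on average was taken. Names came from RefSeq transcripts without versions (assembly GRCm38.p6). Ratios were turned to Cy3 over Cy5 and tested against 0 with lmFit and eBayes, adjusted by Benjamini-Hochberg over 18488 genes (threshold 0.05). Well above background were 60.7% to 66.0% of probes in Cy3 and 62.0% to 67.1% in Cy5, and the 3 arrays limit the precision. The labels call the arrays biological replicates and do not name embryos, so p-values measure the spread between these samples.

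Every listed gene is accounted for. Genes of the larger domains, and those with a mean beyond 0.8 in size, are given with both channels. Members and lists were chosen with earlier results of these data known. The test was checked on simulated ratios. Alternatives covered background correction, normalization, deposited values, dim probes, several probes, variance models, channels as samples, slide and each replicate left out. Figures were drawn with matplotlib 3.10.9.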

Additional observations from a re-analysis of the deposited data

How the results depend on the processing

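The count of imprinted genes past the threshold was 0 under every alternative run except 2: 1 (Dio3) with the processed signals of Feature Extraction and 7 with slide as a fixed term, a fit whose spread comes from 2 arrays. It was 0 without each replicate in turn, where 2 arrays remain. The median log2 ratio of 0.21 lay between 0.15 and 0.24 under the alternatives other than median centring and the leaving out of replicates, with 0.17 for slide as a fixed term. With median centring it turned to -0.0922, and leaving out each replicate gave 0.0752 to 0.191. Over all genes 58 passed, against 0 without replicate 2, without replicate 3, with eBayes with trend and with no filter on dim probes, 34 with median centring, 92 where both channels had to be above background, 118 with no background subtraction, 158 with scale normalization, 265 with normexp at offset 0, 284 without replicate 1, 326 with processed signals and 1772 with the slide term.

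Signs of single genes that turned are these. Median centring gave -0.0550 for Cdkn1c, -0.46 for Tssc4, -0.31 for Snrpn, -0.0730 for Ndn, -0.29 for Peg12, -0.13 for Copg2, -0.23 for Igf2r, -0.0535 for Gnas and -0.30 for Impact, where all genes shifted to -0.30. The mean of all kept probes gave 0.0317 for Nap1l4 and -0.00499 for Snrpn. Processed signals gave 0.15 for Phlda2, and the slide term gave -0.26 for Snrpn and 0.0467 for Mest. Leaving out each replicate gave -0.00681 to 0.0672 for Ascl2, -0.0470 to 0.106 for Tssc4, -0.12 to 0.912 for Asb4, -0.0194 to 1.07 for Slc38a4, -0.393 to 0.14 for Inpp5f, -0.43 to 0.10 for Phlda2, -0.43 to 0.560 for Snrpn and -0.43 to 0.18 for Mest. The cause was not tested. Igf2, Dlk1, Dio3, Grb10, Peg3, Slc22a18, Plagl1 and Nnat stayed above 0 under all 16 alternatives. The test of each array's ratio against 0 already pairs the cultures that share an array; with both channels as separate samples the median was 0.21 and 0 imprinted genes passed.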
